A study of Mus musculus with 2 samples.

Results

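The 10 genes described here encode the parts of mouse telomerase and the factors that build it. They are Tert and Terc, the H/ACA protein genes Dkc1, Nhp2, Nop10 and Gar1, the trafficking factor Wrap53, and the assembly factors Naf1, Ruvbl1 and Ruvbl2. They were taken from the expression table by gene symbol, and all 10 were found among its 18888 genes.

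Telomerase adds telomeric DNA repeats to chromosome ends. Its catalytic protein, TERT, copies a short template inside the telomerase RNA, Terc. Terc ends in an H/ACA domain that is bound by dyskerin (DKC1), NHP2, NOP10 and GAR1, the same proteins that serve H/ACA small nucleolar RNAs, while NAF1 holds the place of GAR1 during assembly, the ATPases RUVBL1 and RUVBL2 help to build the particle, and WRAP53 (TCAB1) brings it to Cajal bodies. Mouse embryonic stem cells (mESCs) are known for high telomerase activity, and TERRA, the RNA transcribed from telomeres, carries UUAGGG repeats that can pair with the Terc template.

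The study sequenced RNA from 46C cells, a mouse embryonic stem cell line whose labels describe an origin in the inner cell mass. PB cells carried the empty PiggyBac vector, and PB-TERRA cells overexpressed polyadenylated TERRA from the same type of vector. Both were grown on gelatin-coated plates in standard mESC medium and both are labelled as passages 21 to 24, so they share the cell line, the vector backbone and the culture. Each condition has 1 library, and whether the cells were clones or a mixed population is not given in the sources used here. The comparison asks whether the transcripts of telomerase itself differed between cells with and without extra TERRA.

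Levels are given as FPKM, a read count scaled to gene length and to the depth of the library. The spacing of low FPKM values corresponds to 24740000 reads in PB and 24890000 reads in PB-TERRA, from which the reads behind each gene were estimated. The 95% intervals below cover the counting error of these reads only. They compare 2 libraries and not conditions, since without replicates no test and no replicate error can be given. All 12 mESC markers were past 1 FPKM, with Pou5f1 at 744.67 FPKM in PB and 773.31 in PB-TERRA, Sox2 at 133.91 and 144.88, Nanog at 186.41 and 173.37, and Esrrb at 127.58 and 140.84. Over the 12 markers, 6 were higher and 6 lower in PB-TERRA. Counting intervals lay above 0 for 4 and below 0 for 4, beside 44.4% on either side among genes of at least 10 FPKM. Of 12 fibroblast markers 11 were in the table and 6 were past 1 FPKM. PB-TERRA was higher for 4 of these 6 and lower for 2. The 11 summed to 24.02 FPKM in PB and 27.77 in PB-TERRA, with none at the floor of the table. Of the 6, 2 had a counting interval above 0 (beside 18.2% of all genes past 1 FPKM) and 0 below it (beside 17.6%). These were the collagen genes Col1a1, at 7.99 FPKM in PB and 12.14 in PB-TERRA, and Col1a2, at 0.92 and 1.37, and Col3a1, under 1 FPKM, was at 0.21 and 0.47. Thy1, at 9.16 and 8.39, and Loxl1, at 2.28 and 1.88, had intervals that included 0. Their part in the results was not tested. In bulk RNA, fewer cells of a type and less RNA per cell cannot be told apart.

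Terc is where telomerase and TERRA could meet by base pairing, so both of its ends are shown. The sequences are those of the reference annotation (GENCODE with the RefSeq ends, GRCm38), 5′ to 3′ on the RNA strand with T for U. The gene lies on the minus strand of chromosome 3. In the 5′ end, bases 1 to 60 at chr3:96414774-96414833, the capitals mark the 9 bases complementary to UUAGGG repeats, which hold the template. In the 3′ end, bases 328 to 397 at chr3:96414437-96414506, the capitals mark TGAG, the letters of the CAB box that WRAP53 recognises, and the ACA of the H/ACA domain.
Terc 5′ end: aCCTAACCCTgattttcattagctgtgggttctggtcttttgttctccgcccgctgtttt
Terc 3′ end: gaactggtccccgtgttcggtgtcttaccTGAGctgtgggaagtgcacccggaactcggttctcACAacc

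The 9-base stretch covers bases 2 to 10 of the 397 bases of Terc and is the longest complementary to the repeat. On the transcript strand, a run of this kind occurs in the first 397 bases of a transcript for 0.382% of 43426 annotated genes. TGAG occurs once in Terc, from base 357, but also in 86.2% of the same windows, so the letters alone mark little. The last of 4 ACA trinucleotides starts at base 392 and leaves 3 bases to the end, a spacing found in 2.54% of the transcripts. GENCODE draws Terc 26 bases longer at the 5′ end than RefSeq.

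No telomerase gene with a measurable level differed by 2-fold or more between the libraries, and the catalytic subunit, the H/ACA proteins and the assembly factors kept the same order of levels. A gene was counted as measurable from 1 FPKM in at least 1 library, which 9 of the 10 genes reached, Terc being the exception. Of these 9, 7 were lower and 2 higher in PB-TERRA, with a median log2 ratio of FPKM + 0.1 of -0.08, beside -0.0044 over all 12263 measurable genes. With the median ratio of genes of like length taken off, the median of the 9 was -0.04. None of the 9 reached an absolute log2 ratio of 1, which 0.913% of all measurable genes did. The largest difference was that of Nhp2, at -0.21.

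**Figure D1:**
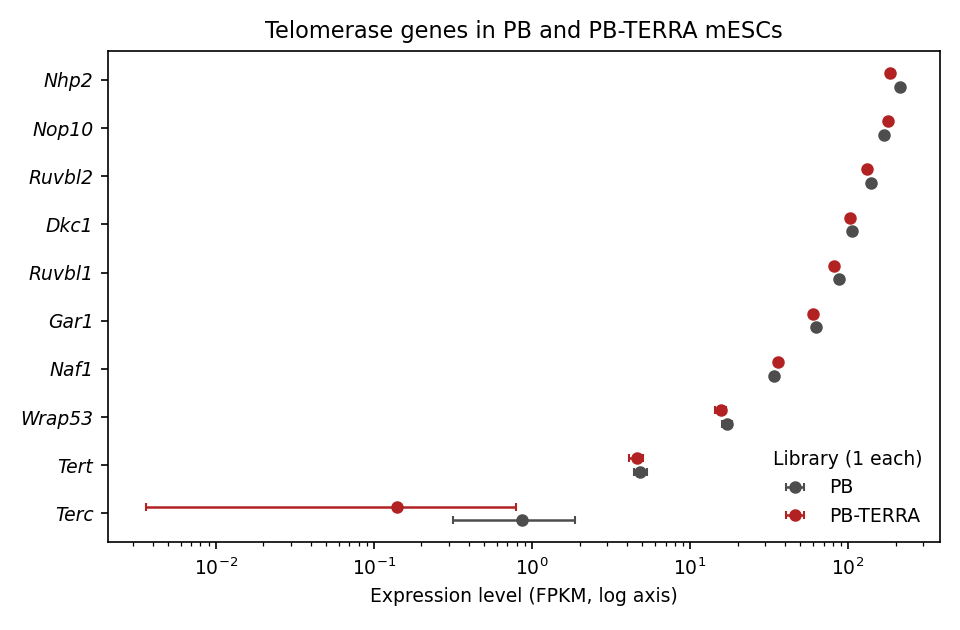
Expression level of each telomerase gene (FPKM, log axis) in the PB library (grey) and the PB-TERRA library (red), with bars for the 95% Poisson interval of the estimated reads. The order is the same in both libraries, from Nhp2 at 213.00 and 184.03 FPKM down to Terc at 0.86 and 0.14 FPKM.

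The levels spanned a wide range in both libraries. Nhp2 was the most abundant, followed by Nop10, Ruvbl2, Dkc1, Ruvbl1, Gar1, Naf1, Wrap53, Tert and Terc. In PB the counting intervals of no neighbours in this order overlapped, and in PB-TERRA only those of Nhp2 and Nop10 did. Nhp2 exceeded Tert 43.8-fold in PB and 40.1-fold in PB-TERRA on the FPKM scale. By level, Nhp2 ranked 315 of the 18888 genes in PB, Wrap53 4581, Tert 8740 and Terc 12260.

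Tert (gene ID 21752, GRCm38 chromosome 13, 73626911 to 73649843, plus strand), the reverse transcriptase, had a level of 4.86 FPKM in PB and 4.59 FPKM in PB-TERRA. These values stand for about 398 and 378 reads. The log2 ratio was -0.08 (95% counting interval -0.29 to 0.12), so a difference of this size was not detectable at this depth. Among 2305 genes of like level, within 1.5-fold of its mean, this ratio lay at percentile 33.4.

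Terc (gene ID 21748, GRCm38 chromosome 3, minus strand) was listed at 0.86 FPKM in PB and 0.14 FPKM in PB-TERRA, which are about 6 reads and 1 read. The ratio of the reads was -2.59 on the log2 scale with a counting interval of -8.12 to 0.45, which includes 0. This rests on the offset taken off gene length when reads were estimated, and with none taken off the interval was -8.48 to -0.11. Mature Terc has no poly(A) tail, and the library kit used enriches tailed RNA, so these reads count only what the kit captured and not the cell's telomerase RNA. The 3 other untailed RNAs named here were picked after their values were seen, so nothing about the kit is read from them. Rmrp had about 2 and 2 reads, Rpph1 20 and 12 and Rn7sk 12 and 21. All 3 of their intervals included 0 as well, with Rpph1 lower and Rn7sk higher in PB-TERRA. The part of the kit in the Terc values was not tested.

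The 4 H/ACA proteins bind Terc as 1 unit, and 3 of their messengers were lower and 1 higher in PB-TERRA. Of the 4, 1 had an interval above 0 and 1 below it, beside 44.4% on either side among genes of at least 10 FPKM. No shared or split direction is read from this. Dkc1 (gene ID 245474, chromosome X), the pseudouridine synthase, was at 106.00 FPKM in PB and 103.02 in PB-TERRA, with a ratio of -0.04 (-0.09 to 0.01) on the log2 scale. Gar1 (gene ID 68147, chromosome 3), which joins the mature particle, was at 62.83 and 60.06 FPKM, a ratio of -0.07 (-0.16 to 0.03) on the log2 scale of reads, or -0.02 (-0.12 to 0.07) with the median of genes of like length taken off. The intervals of Dkc1 and Gar1 all included 0.

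Nhp2 (gene ID 52530, GRCm38 chromosome 11, 51619735 to 51623714, plus strand), a core H/ACA RNA-binding protein, was at 213.00 FPKM in PB and 184.03 FPKM in PB-TERRA. About 4685 and 4072 reads stand behind these values, and the log2 ratio was -0.21 (-0.27 to -0.15). Of the 345 genes of like level, 4.93% had a ratio below that of Nhp2. Nop10 (gene ID 66181, chromosome 2), the smallest protein of the core, lay the other way, at 169.67 FPKM in PB and 179.26 FPKM in PB-TERRA, with a log2 ratio of 0.08 (0.0021 to 0.16). It was at percentile 81.0 of 406 genes of like level. The lower bound for Nop10 is close to 0.

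The 4 proteins belong to a single complex, and the ratio of one messenger to another within a library does not depend on depth, though its difference between libraries moved with gene length. A length-corrected value, with the median for genes of like length taken off each gene, is therefore given as well. The ratio of Nop10 to Nhp2 FPKM was 0.797 in PB and 0.974 in PB-TERRA, which is a log2 difference of 0.29 (0.19 to 0.39), or 0.30 (0.20 to 0.40) length-corrected. That of Nhp2 to Dkc1 was 2.01 in PB and 1.79 in PB-TERRA, a difference of -0.17 (-0.25 to -0.09), or -0.11 (-0.18 to -0.03) length-corrected. The ratio of Gar1 to Dkc1 was 0.593 and 0.583, with a difference of -0.02 (-0.13 to 0.08), or 0.01 (-0.09 to 0.12) length-corrected. The pairs were chosen by role after the values were seen, and every interval covers counting only. Nop10 and Nhp2 had the highest and the lowest ratio of the core, so their interval was likely to leave out 0. Of the 6 core pairs, 5 had an uncorrected interval on 1 side of 0. No share was computed for pairs of other genes, so no result about the core is read from the pairs.

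Naf1 (gene ID 234344, chromosome 8), the assembly factor that GAR1 replaces, was at 34.03 FPKM in PB and 35.95 in PB-TERRA. Its log2 ratio was 0.08 with an interval of -0.0020 to 0.16, at the edge of 0. The ratio of Naf1 to Gar1 FPKM was 0.542 in PB and 0.599 in PB-TERRA, which is a log2 difference of 0.14 (0.02 to 0.27). Length-corrected, this difference was 0.11 with an interval of -0.02 to 0.24, which includes 0.

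Ruvbl1 and Ruvbl2 encode the 2 ATPases of 1 hexameric complex, and both were lower in PB-TERRA. Ruvbl1 (gene ID 56505, chromosome 6) was at 87.84 and 81.05 FPKM, a log2 ratio of -0.12 (-0.19 to -0.05). Ruvbl2 (gene ID 20174, chromosome 7) was at 139.29 and 131.14 FPKM, a log2 ratio of -0.09 (-0.14 to -0.03). Length-corrected, the ratios were -0.07 (-0.14 to 0.0018) for Ruvbl1 and -0.04 (-0.10 to 0.02) for Ruvbl2, and both intervals included 0. The ratio of Ruvbl2 to Ruvbl1 was 1.59 in PB and 1.62 in PB-TERRA, which is a log2 difference of 0.03 (-0.06 to 0.12).

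Wrap53 (gene ID 216853, chromosome 11), whose protein carries the particle to Cajal bodies, was at 17.10 FPKM in PB and 15.60 FPKM in PB-TERRA, with a log2 ratio of -0.13 (-0.28 to 0.02), or -0.08 (-0.23 to 0.07) length-corrected. It starts 104 bases from Trp53, which is on the other strand. GENCODE has no exonic base in common between Wrap53 and Trp53 on GRCm38. Trp53 was at 371.33 FPKM in PB and 389.62 in PB-TERRA, with a log2 ratio of 0.07 (0.04 to 0.10).

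**Figure D2:**
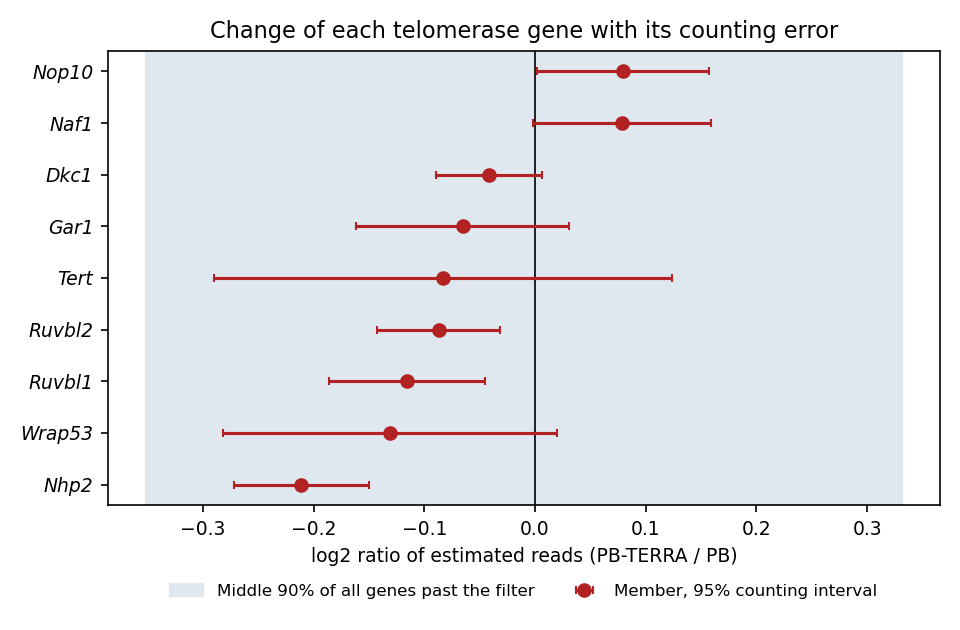
Log2 ratio of estimated reads, PB-TERRA over PB, for the 9 telomerase genes past 1 FPKM, with bars for the 95% counting interval and a band for the middle 90% of all 12263 measurable genes. All 9 points lie inside the band, from Nhp2 at -0.21 to Nop10 at 0.08.

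The intervals left out 0 for 4 of the 9 genes. That of Nop10 lay above 0, beside 18.2% of all measurable genes, and those of Nhp2, Ruvbl1 and Ruvbl2 lay below it, beside 17.6%. Abundant genes have narrow intervals, so a fairer reading takes the 8 telomerase genes of at least 10 FPKM in both libraries. Of these 4 had an interval on 1 side of 0, and so had 44.4% of the 6290 genes at that level, which is near the same share and therefore no result about the telomerase genes.

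**Figure D3:**
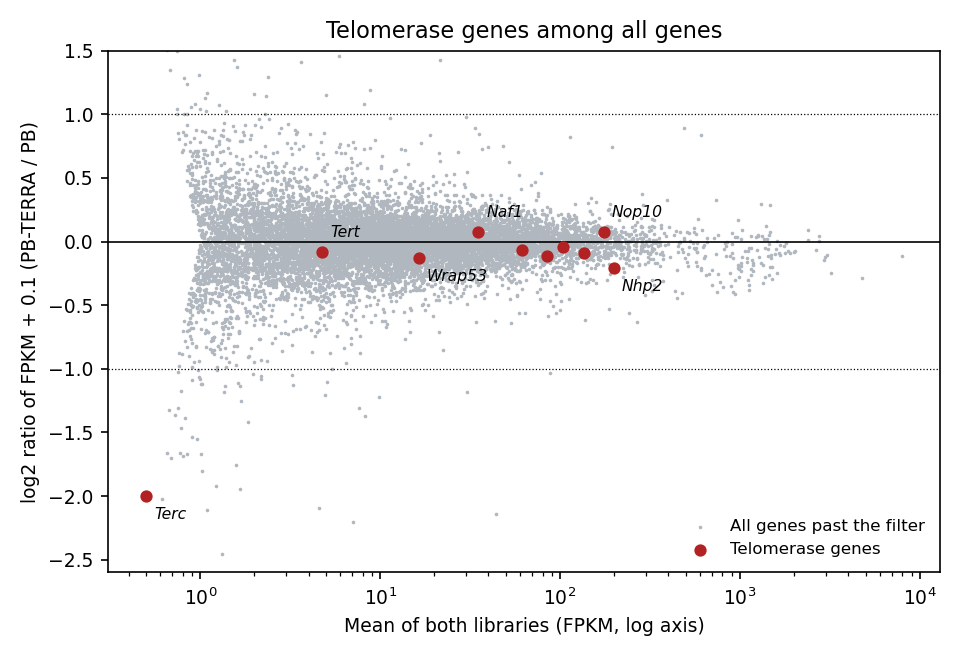
Log2 ratio of FPKM + 0.1, PB-TERRA over PB, against the mean FPKM of both libraries (log axis) for all measurable genes (grey) and the 10 telomerase genes (red), with dotted lines at log2 ratios of 1 and -1. The 9 measurable telomerase genes lie between -0.21 and 0.08. Genes with ratios outside the axis are not drawn, and Terc, below 1 FPKM in both libraries, is drawn for its place only.

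Gene length moved with the ratios. Across the 6290 genes of at least 10 FPKM, the rank correlation (Spearman's rho) of the log2 ratio with gene length was 0.273, given as a description, since the genes share both libraries. When these genes were split into deciles by length, the median ratio went from -0.06 (shortest) to 0.05 (longest). Nop10, at 738 bases, is among the shortest genes, and Nhp2 has 1004 bases. With the median of genes of like length taken off, the log2 ratio was -0.14 for Nhp2 and 0.15 for Nop10. The medians taken off were alike, -0.0665 for Nhp2 and -0.0748 for Nop10, so the correction could hardly alter the difference between them. The corrected ratio of Naf1 was 0.09 (0.0054 to 0.17). After this correction the intervals of 3 of the 9 genes, Nhp2, Nop10 and Naf1, left out 0, beside 35.0% of all measurable genes. That share includes less abundant genes with wider intervals, and none was computed for genes of at least 10 FPKM. No result about the telomerase genes is read from it.

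**Figure D4:**
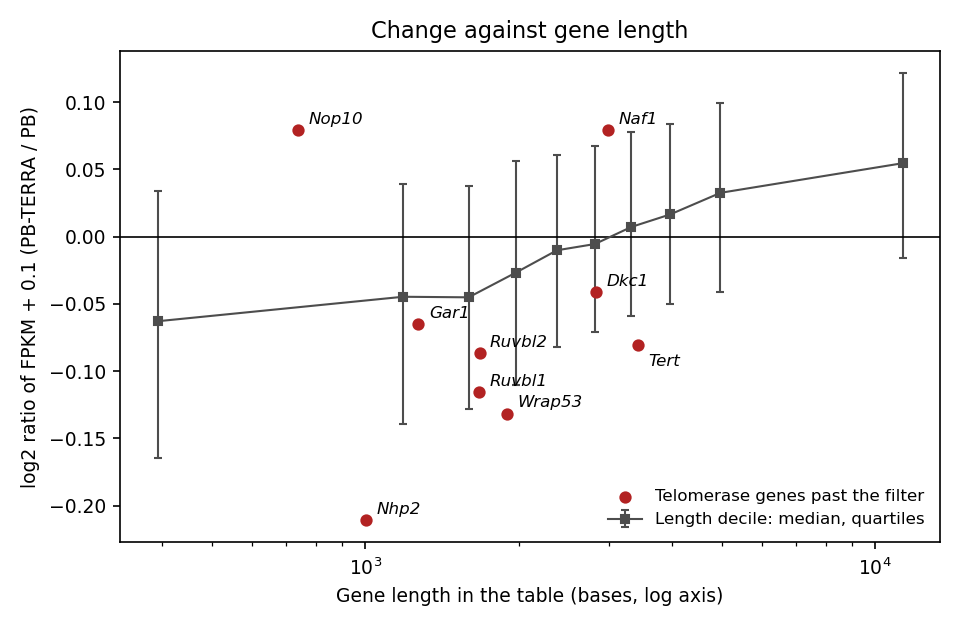
Log2 ratio of FPKM + 0.1, PB-TERRA over PB, against gene length in bases (log axis) for the 9 measurable telomerase genes (red), with the median and quartiles of each length decile of the 6290 genes of at least 10 FPKM (grey). The medians run from -0.06 in the shortest decile to 0.05 in the longest, and 5 of the 9 genes lie outside the quartiles of their decile, Nop10 and Naf1 above and Nhp2 (lowest), Wrap53 and Tert below, where quartiles leave out 50% of genes by construction.

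Reads can be shared with other copies or with genes on the other strand, which the library kit does not mark. Of the 50-base stretches in Ruvbl1 transcripts, 49.4% also occur in the processed pseudogene Gm5837, which is not analysed here, so the value of Ruvbl1 depends on how shared reads were assigned. For Naf1 7.82% occur in Gm2027, a processed pseudogene at 0.15 FPKM in both libraries, and for Nop10 2.74% occur in Gm46562. Ruvbl2 shares 15.4% of its exonic bases with Gys1 and Lhb on the opposite strand, and Gys1 was at 11.10 FPKM in PB and 11.04 in PB-TERRA. Nhp2 shares 3.84% of its exonic bases with Rmnd5b, at 32.89 and 31.05 FPKM. No 50-base stretch of Nhp2, Gar1, Wrap53 or Terc occurred in another annotated gene.

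The genes around telomerase were described by 7 lists of known partners, none of which had a member past a log2 ratio of 1. Their counts of intervals stand beside 18.2% above and 17.6% below 0 over all measurable genes, 44.4% on either side among genes of at least 10 FPKM, and 35.0% on either side of all measurable genes with the length correction. Nothing particular to a list is read from them. The TRiC chaperonin, which folds WRAP53, had 7 of 8 subunits lower and 1 higher in PB-TERRA, with a median log2 ratio of -0.11. The counting intervals of 6 subunits lay below 0, and so did 6 with the length correction, beside 40.5% and 32.4% of the 111 genes within the same range of mean FPKM. Cct4 was lowest, at 267.64 FPKM in PB and 234.96 in PB-TERRA, Cct8 was highest, at 245.77 and 246.93, and Cct6a was the most abundant, at 401.63 and 396.44. The R2TP and HSP90 cofactor genes, which work with RUVBL1 and RUVBL2, had 11 of 17 lower, a median of -0.08, and 5 intervals below (beside 17.6% of all measurable genes) and 0 above 0 (beside 18.2%). With the length correction 5 intervals lay below and 2 above 0, beside 35.0% on either side. Telo2 was lowest in that list, at 9.54 and 8.17 FPKM, Pdrg1 was highest, at 11.80 and 13.57, and Polr2e was the most abundant, at 118.70 and 104.88.

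In the other lists the directions were mixed. Telomerase RNA maturation and trafficking had 8 of 16 genes higher and 8 lower, with 5 intervals above and 3 below 0 and a median of -0.01, and 4 above and 3 below with the length correction. These 8 of 16 on either side are near the 44.4% of genes of at least 10 FPKM. Both cap-binding subunits stood at its ends, Ncbp2 at 28.37 FPKM in PB and 34.63 in PB-TERRA and Ncbp1 at 64.23 and 56.85, and Pabpn1, the nuclear poly(A)-binding protein gene, was the most abundant, at 177.36 and 205.86. Of 14 genes for chaperones and regulators that bind TERT, 6 were higher and 8 lower, with 5 intervals above (beside 18.2%) and 1 below 0 (beside 17.6%), also with the length correction. The median was -0.0027, and 0.0074 with the correction. Hsp90aa1, a chaperone gene, was highest, at 1334.47 and 1455.73 FPKM, Tep1 lowest, at 3.98 and 3.56, and Hsp90ab1 the most abundant, at 2711.51 and 2797.02. The 4 core genes of box C/D particles, the sister class of H/ACA particles, had 2 higher and 2 lower, with 2 intervals above (beside 18.2%) and 1 below 0 (beside 17.6%) and a median of 0.03. With the length correction 2 lay above and 0 below 0, the interval of Nop56 included 0, and the median was 0.07. In that list, Nop58 was highest, at 143.17 and 153.42 FPKM, Nop56 lowest, at 269.72 and 257.93, and Fbl the most abundant, at 279.63 and 294.92.

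Chromatin complexes that also hold RUVBL1 and RUVBL2 had 16 of 24 genes higher in PB-TERRA, a median of 0.06, and 6 intervals above (beside 18.2%) and 4 below 0 (beside 17.6%). With the length correction 9 lay above and 5 below 0, and the median was 0.09. Uchl5 was highest in that list, at 36.25 FPKM in PB and 43.52 in PB-TERRA, Mcrs1 lowest, at 59.60 and 47.99, and Morf4l1 the most abundant, at 233.82 and 243.12. Of 11 genes for factors that act on the Tert promoter, 8 were higher and 3 lower, with a median of 0.07 and 4 intervals above (beside 18.2%) and 2 below 0 (beside 17.6%), and 5 above and 2 below with the length correction. Myc, an activator of Tert transcription, was at 56.25 and 68.55 FPKM, a log2 ratio of 0.28 (0.22 to 0.35). Its relative Mycn was at 108.38 and 91.50 FPKM, a ratio of -0.24 (-0.30 to -0.19). Ctnnb1, the beta-catenin gene, was the most abundant of the list, at 246.73 and 239.55 FPKM. The list was not split by whether a factor raises or lowers Tert transcription, so its counts give no direction for Tert. Tert itself had an interval that included 0.

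**Figure D5:**
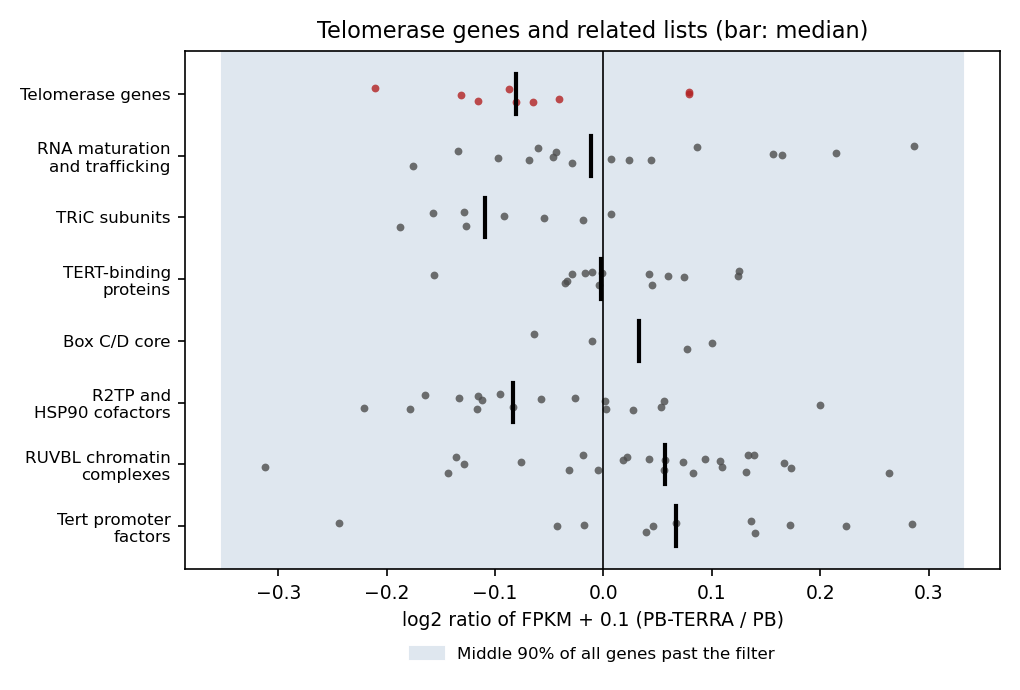
Log2 ratio of FPKM + 0.1, PB-TERRA over PB, for each measurable gene of the telomerase set (red) and of 7 related lists (grey), with a black bar at each median and a band for the middle 90% of all 12263 measurable genes. All points lie inside the band, and the medians run from -0.11 for TRiC to 0.07 for the Tert promoter factors.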

How the data were processed

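Each condition, PB or PB-TERRA, was measured in 1 RNA library of 46C mESCs. Per the labels, total RNA was extracted with Trizol, libraries were made with the TruSeq RNA LT Sample Prep Kit v2 and run on a BGISEQ500, and the submitters' processing notes name HISAT, Cufflinks and the build mm9, with no versions. The authors deposited 1 table with an FPKM value per gene and library, rounded to 2 decimals with a floor of 0.01, and a gene length. Its header names no unit, and FPKM was read from the values. The table also holds the authors' own log2 fold change, p-value, adjusted p-value and call, and these were not used.

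The log2 ratio of FPKM + 0.1 was taken for the 12263 genes of at least 1 FPKM in 1 library, with a threshold of 1 and no test. Low FPKM values (up to 8 reads) rise in steps worth 1 read once 115 bases are taken off the gene length, and the step size gave the depth. Of these 823 and 879 values, 83.2% in PB and 85.6% in PB-TERRA lay within 0.15 of a whole read. Reads were estimated from FPKM, length and this depth, and gave Clopper-Pearson 95% intervals of the ratio and Poisson intervals of the level. They cover counting error only. The computation used scipy 1.17.1, pandas 2.3.3 and numpy 2.4.6 in Python 3.11.15, with matplotlib 3.10.9 for the figures, and was tested on simulated data. The members and lists were chosen with earlier results of these data known. All 10 members are named, and for each list the highest, the lowest and the most abundant gene, with Trp53 and 4 mESC markers. Col1a1, Col1a2, Col3a1, Thy1, Loxl1, the untailed RNAs, the partner genes and pseudogenes were named after their values were seen. Coordinates are from GRCm38, since an mm9 genome was not used here. Pseudocounts, filters, scaling, depth and a length correction were varied. The correction of the intervals and of the gene pairs for length was added after the data were seen.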

Additional observations from a re-analysis of the deposited data

How the results depend on the processing

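With no filter on low values, 1 telomerase gene, Terc, passed the 2-fold threshold, against 0 in the reported setting and in the 7 other alternatives tried. It rests on about 6 reads and 1 read, and its log2 ratio was -0.71 with a pseudocount of 1 FPKM and -2.54 with 0.01. The median log2 ratio of the members lay between -0.08 and -0.04 under all settings, nearest to 0 with the length correction. Among the 9 genes past 1 FPKM (Terc left out), 4 had a counting interval on 1 side of 0, and between 3 and 5 had one under other depths, length offsets and the length correction. Nop10 and Naf1, at the edge of 0, moved in or out, Ruvbl1 and Ruvbl2 and the ratio of Naf1 to Gar1 included 0 after the length correction, and with no length offset the Terc interval lay below 0 too, which makes 6 of all 10 genes. Of 60 single-gene values, 59 moved by less than 0.5 of the width of their counting interval, 1 moved (Nhp2, -0.14 with the length correction) and 0 turned sign. No paired analysis was possible because each condition has 1 library, and no library could be left out. Counting error was largest for Terc, whose interval spanned -8.12 to 0.45 on the log2 scale.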
